A study of Mus musculus with 24 samples.

Results

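The comparison described here was that of mice with 1 intact copy of Nr5a2 (+/-, called HET) and mice with 2 (+/+, called WT) at 24 h after the start of a mild acute pancreatitis. Its 6 samples, 3 per genotype, were the ones labelled with these genotypes and with caerulein at 24 h, out of 24 samples in 8 groups of 3. All mice were of C57BL background, and each sample was polyadenylated RNA of the pancreas of a separate animal. Both groups had received 7 hourly intraperitoneal injections of caerulein at 50 µg/kg, counted from the first of which the animals were killed at 24 h. The other groups were WT and HET mice given saline, and WT and HET mice killed 8 h or 48 h after the first caerulein injection. The labels give the genotype as +/- without naming the part of the gene that is changed, a cell type to which it is limited, or the age and sex of the mice. Levels are FPKM, read fragments scaled to the length of the transcript and to the depth of the library, and a difference is HET minus WT on the scale of log2(FPKM + 1), which understates changes of low genes. A gene was called higher or lower where limma, fitted across all genes and 8 groups, gave an adjusted p under 0.05. Replicates are called by number in the order of their accessions, and a number pairs no animals.

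Nr5a2 encodes a nuclear receptor that binds DNA as a monomer and, in acinar cells of the pancreas, acts with the PTF1 complex (Ptf1a with Rbpjl) on genes of digestive enzymes. Caerulein is an analog of cholecystokinin. At high doses it overstimulates the receptor Cckar on acinar cells, which lose zymogen granules, lower their enzyme genes and switch on genes of duct and injured epithelium while leukocytes enter the tissue. After a mild episode acinar cells regain their secretory program. The 24 h time point falls between injury and recovery.

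Promoters of 3 genes are shown because the genes carry the comparison: Bhlha15, the acinar transcription factor with the largest fall, and Gjb1 and Cxcl14, the named genes called lower or higher whose window held the letters of an NR5A2 site. The windows run from 250 bases before to 50 bases after the start of the gene, 5′ to 3′ on the strand of the gene, from RefSeq on build GRCm38.p6. Capitals mark the site, which in both genes lies on the strand opposite to the gene.
Bhlha15, chr5:144190036-144190335 (+): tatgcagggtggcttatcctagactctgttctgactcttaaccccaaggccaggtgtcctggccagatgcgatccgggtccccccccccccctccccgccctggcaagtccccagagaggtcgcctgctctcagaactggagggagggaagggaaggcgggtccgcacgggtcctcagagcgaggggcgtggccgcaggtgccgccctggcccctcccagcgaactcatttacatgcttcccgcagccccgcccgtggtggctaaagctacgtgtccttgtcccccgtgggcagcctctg
Gjb1, chrX:101381868-101382167 (+): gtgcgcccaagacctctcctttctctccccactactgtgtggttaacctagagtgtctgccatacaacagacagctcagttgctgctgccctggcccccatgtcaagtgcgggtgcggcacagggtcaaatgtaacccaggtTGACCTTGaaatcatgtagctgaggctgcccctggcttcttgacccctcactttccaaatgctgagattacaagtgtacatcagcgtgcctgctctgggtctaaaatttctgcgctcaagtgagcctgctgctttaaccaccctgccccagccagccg
Cxcl14, chr13:56296502-56296801 (-): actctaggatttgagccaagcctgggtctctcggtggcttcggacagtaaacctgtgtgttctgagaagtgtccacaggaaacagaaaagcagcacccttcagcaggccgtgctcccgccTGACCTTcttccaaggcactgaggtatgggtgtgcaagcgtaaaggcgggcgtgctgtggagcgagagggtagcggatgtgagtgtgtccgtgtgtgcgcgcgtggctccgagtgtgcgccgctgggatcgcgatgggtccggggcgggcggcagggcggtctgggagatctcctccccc
The Gjb1 window held the 8 letters CAAGGTCA, starting 108 bases before the gene, and the Cxcl14 window held AAGGTCA, which is contained in the longer motif, 130 bases before the gene. No match to either was found in the Bhlha15 window. The motif CAAGGTCA was present on either strand in 1.56% of 32851 promoter windows. Gene sets were counted by gene, a gene counting where any of its windows matched. By that count it was in 1.24% of 9373 tested genes with a window. It was in 0.292% of 343 genes higher in HET, which is 1 gene, and in 1.06% of 283 genes lower, which is 3 genes. For AAGGTCA the shares were 4.72%, 3.81%, 3.21% and 4.59% in the same order. The AP-1 motif TGANTCA was in 7.81% of all windows, 6.53% of tested genes, 11.7% of genes higher in HET and 6.01% of genes lower. The E-box CAGCTG was in 16.3%, 17.8%, 21% and 19.4%, and the NF-kB motif GGGANTTT in 4.51%, 4.66%, 4.66% and 4.59%. These are counts of letters in short windows, and 104 of the 148 named genes had a window.

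Summed FPKM was 390241, 410872 and 435002 in the WT samples and 282830, 268049 and 253085 in the HET samples. All 6 libraries were made with the earlier of 2 library guides. Several very abundant acinar genes, among them Pnlip, Cela1, Prss2 and Try5, were listed at 0 in all animals of a group and at high values elsewhere, so 33 genes were treated as missing in a 24 h group. Markers of acinar cells were present in all 6 animals, 11 of 12 in tests, and their summed level was 38106 to 49907 FPKM in WT and 13100.0 to 14543 in HET. In whole tissue, fewer cells of a type and less RNA per cell cannot be told apart.

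Marker genes of other cell types varied between animals of a genotype. Adipocyte markers (12 of 13 tested) summed to 624, 499 and 177 FPKM in WT and to 81.4, 102 and 221 FPKM in HET. B cell markers (9 of 12 tested) summed to 620.1, 253 and 16.9 FPKM in WT and to 27.3, 10.6 and 89.7 FPKM in HET. Neutrophil markers (10 of 15) summed to 186, 39 and 13.7 FPKM in WT and to 335, 129 and 156 FPKM in HET, and macrophage and monocyte markers (20 of 20) to 1290.4, 1001 and 879 FPKM in WT and 1801, 1191 and 1384 FPKM in HET. Duct markers (8 of 10) summed to 444, 583 and 744 FPKM in WT and 1056, 1009 and 961 FPKM in HET, and fibroblast and stellate cell markers (16 of 16) to 1058, 922 and 574 FPKM in WT and 524, 603 and 699.97 FPKM in HET. Duct and acinar sums did not overlap between the genotypes, and the sums of the other lists named here did. A sum follows the most abundant members, and of the 8 tested duct markers 4 had a positive and 4 a negative difference. Of the defining markers, Ly6g, Mpo and Elane of neutrophils and Cd3e and Cd8a of T cells were below the filter on low values, and 6 of 11 markers of intestinal epithelium, Fabp1 and Cdx2 among them, were at 0 in all 6 animals. Xist, which is made from the inactive X chromosome of females, was 22.5 FPKM in WT replicate 1, 0.234 and 0.0063 FPKM in the other WT animals and 0 in the 3 HET animals, and Y-linked Kdm5d was 0.0282 FPKM in WT replicate 1 and 0.885 to 1.2 FPKM in the other 5 animals. The labels give no sex, and the part of these differences in the results was not tested except where a value is given.

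**Figure D1:**
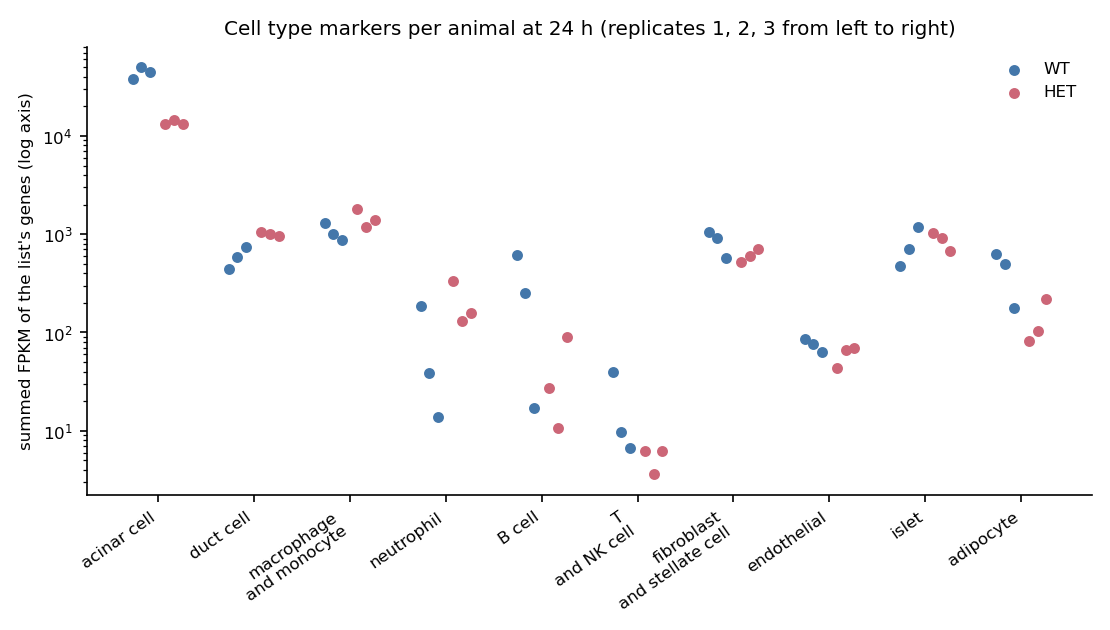
Summed FPKM (log axis) of the marker genes of each cell type in the 6 animals at 24 h with 1 point per animal, replicates 1 to 3 from left to right. The acinar sums of the 3 HET animals lie below those of all WT animals and the duct sums above them. Of the 8 tested duct markers 4 had a positive and 4 a negative difference. B cell and adipocyte sums spread widely within WT.

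Nr5a2 itself was 4.64, 5.48 and 6.44 FPKM in the 3 WT animals and 4.09, 5.39 and 4.33 FPKM in the 3 HET animals. Those ranges overlap. The difference at 24 h was -0.22 ± 0.19 (SE; limma adjusted p = 0.568), beside -0.27 in saline, -0.29 at 8 h and -0.39 at 48 h, none of them past the threshold. A level over the whole gene is no check of the genotype where a changed allele still gives transcripts.

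At 24 h the HET pancreas had less RNA of the acinar regulators Bhlha15 and Rbpjl, of the ribonuclease genes Rnase1, Ang and Rnase4, of 7 of 8 kallikrein genes, of the secretagogue receptor Cckar and of Sel1l, which acts in the removal of misfolded proteins. It had more RNA of 13 of 24 junction genes, of 10 of 25 keratin, actin and tubulin genes, of 8 of 29 chemokine and 7 of 26 cytokine genes and of the NF-kB subunits Rela, Relb and Nfkb2. Of 12838 genes tested, 450 (3.51%) were higher in HET and 386 (3.01%) were lower, and 2664 had an unadjusted p under 0.05. The higher genes had a median difference of 0.73, and 119 of them reached 1 on the log2 scale and 12 reached 2. The lower genes had a median of -0.89, and 145 of them fell by at least 1 and 21 by at least 2. The 3 HET animals lay above all WT animals for 440 of the higher genes and below them for 378 of the lower ones, and this separation was seen in 13% (above) and 11.8% (below) of all genes tested. Genes named for the size of their difference were taken from those with separate groups, so that the lack of overlap in them was part of the choice. The median difference of all tested genes was 0.0016.

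The counts depended on single animals: without HET replicate 1 the test called 169 higher and 139 lower, without WT replicate 2 it called 232 and 179, without HET replicate 2 it called 254 and 219, and without HET replicate 3 it called 271 and 223. When the spread was estimated from the 6 animals alone the counts were 107 higher and 149 lower, and after rescaling each sample to the sum of its genes other than enzyme and Reg genes they were 358 and 164, with the median of all genes shifted to 0.14. An adjusted p printed for a gene without 1 animal is the highest of the 6 such fits. Its call may be lost without other animals too.

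**Figure D2:**
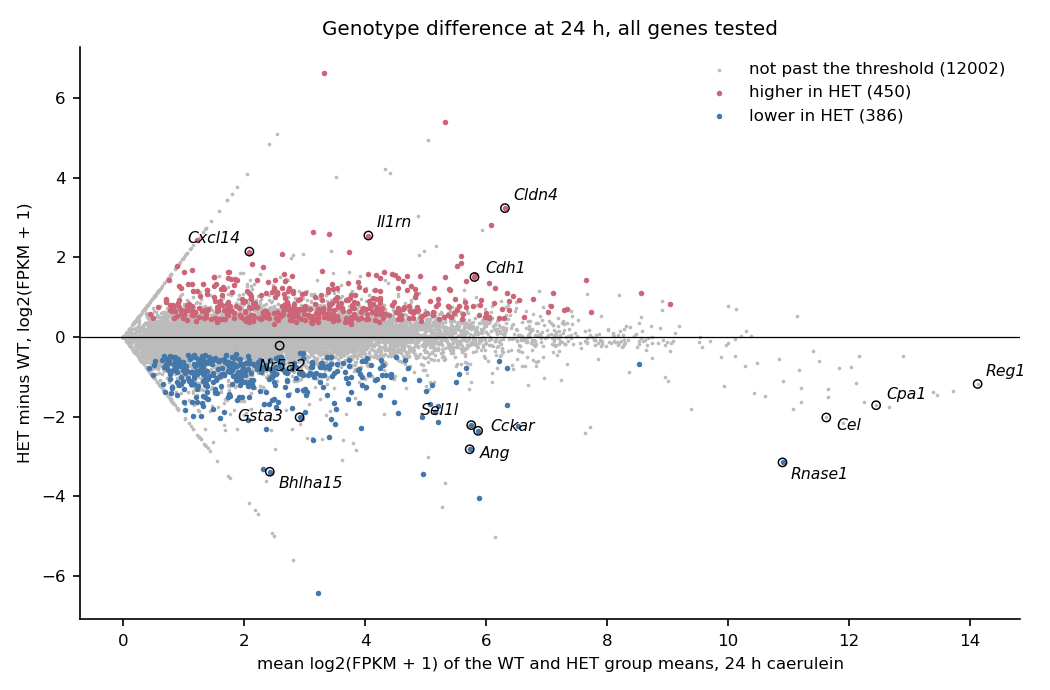
Difference HET minus WT at 24 h in log2(FPKM + 1) against the mean level of each of 12838 genes, with the 450 higher and 386 lower genes in colour and named examples. Genes of acinar regulation such as Bhlha15 lie far below 0 and Cldn4 far above, while most genes lie near 0.

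Among acinar transcription factors and nuclear receptors, 4 of 16 tested members were lower and 1 was higher, with a median of -0.29. Bhlha15 (MIST1), which organises the secretory granules of acinar cells, was 12.2, 21.9 and 16.3 FPKM in WT and 0.396, 0.846 and 0.781 FPKM in HET. Every HET animal was close to 0 and far under every WT animal. The difference was -3.38 ± 0.46 (SE; limma adjusted p = 0.000618). Rbpjl, the acinar subunit of the PTF1 complex, was 14.4, 21.5 and 30.1 FPKM in WT and 3.4, 4.98 and 4.75 FPKM in HET, a difference of -2.05 ± 0.39 (adjusted p = 0.00416), with no overlap.

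The other lower members were 2 nuclear receptor genes. Nr0b2 (SHP), a receptor without a DNA-binding domain that NR5A2 is known to activate and that represses its activity in turn, was 5.76, 3.21 and 7.99 FPKM in WT and 0.907, 1.65 and 1.23 FPKM in HET (-1.50 ± 0.31, limma adjusted p = 0.00776). Nr1h4, which encodes the bile acid receptor FXR, was 1.94, 1.46 and 1.87 FPKM in WT and 0.087, 0.474 and 0.237 FPKM in HET (-1.13 ± 0.17, adjusted p = 0.00106). The highest HET value of each gene lay under the lowest WT value. Hnf4a, a factor of liver and gut epithelium that is also present in the pancreas, went the other way, with 1.28, 2.46 and 1.82 FPKM in WT and 4.71, 5.36 and 3.51 FPKM in HET (0.96 ± 0.20, adjusted p = 0.00875). These 5 calls held when any 1 of the 6 animals was left out. With the spread of the 6 animals alone the list had 3 lower and 0 higher members, Nr0b2 and Hnf4a losing their calls.

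The DNA-binding subunit of PTF1, Ptf1a, was 19.3, 23.8 and 23.3 FPKM in WT and 7.75, 12.6 and 10.5 FPKM in HET. The groups did not overlap, but the difference of -1.05 ± 0.43 did not pass the threshold (limma adjusted p = 0.168). Gata4, a zinc finger factor of the early pancreas, was 8.78, 8.42 and 9.93 FPKM in WT and 3.78, 6.7 and 4.7 FPKM in HET, also apart and not past the threshold (-0.75 ± 0.25, adjusted p = 0.0793).

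Genes of secreted enzymes mostly stood at lower values in HET, yet few passed the test over 8 groups. Of 15 tested proteases and inhibitors 1 was lower, with a median of -1.28, and 13 had all HET animals below all WT animals. Of 6 lipases and amylases none passed in limma (3 had an unadjusted p under 0.05), the median was -1.40 and all 6 had separate groups. Of 12 ribonuclease, granule and other acinar product genes 3 were lower, with a median of -1.08 and 10 separate groups. With the spread taken from the 24 h groups alone, the counts of lower genes became 7 of 15, 5 of 6 and 7 of 12. When any 1 of the 24 animals was left out they ranged from 0 to 8, from 0 to 5 and from 1 to 7. Such ranges for lists cover animals of every condition, not those at 24 h alone. After rescaling to the total without these genes, 0 of 15 proteases, 0 of 6 lipases and amylases and 2 of 12 of the third list were lower.

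Carboxypeptidase A1, Cpa1, was 7960, 12900 and 10200 FPKM in WT and 2930, 3250 and 3120 FPKM in HET (-1.71 ± 0.89, limma adjusted p = 0.312, or 0.0174 with the spread of the 24 h groups alone). The chymotrypsin-like protease gene Ctrl was 7740, 8890 and 7650 FPKM in WT and 1480, 2050 and 1990 FPKM in HET (-2.15 ± 0.81, adjusted p = 0.129, or 0.00621). All HET animals lay below all WT animals for both. The bile salt-dependent lipase Cel was 5680, 7270 and 6300 FPKM in WT and 1420, 1730 and 1580 FPKM in HET (-2.02 ± 1.21, adjusted p = 0.389, or 0.00621). The elastase gene Cela2a was 21300, 19900 and 23700 FPKM in WT and 9940, 8010 and 7600 FPKM in HET and gave -1.35 ± 0.96 (adjusted p = 0.484, or 0.0215). No HET animal reached the range of the WT animals in either gene. Amy1, the amylase gene of salivary type, was 44.3, 50.7 and 59.6 FPKM in WT and 22.2, 19.7 and 18.7 FPKM in HET (-1.30 ± 0.44, adjusted p = 0.0899, or 0.0161), and Pnliprp2, a lipase, 1220, 1670 and 1670 and 589, 730 and 596 FPKM (-1.24 ± 0.54, adjusted p = 0.193, or 0.028). The 1 protease inhibitor past the threshold was Serpini2, with 98.9, 115 and 91.3 FPKM in WT and 8.5, 9.62 and 7.33 FPKM in HET (-3.44 ± 0.92, adjusted p = 0.0316). Its call was lost when any 1 animal was left out, with adjusted p up to 0.0988 without WT replicate 2.

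Ribonuclease genes were lower. Rnase1, the pancreatic ribonuclease, was 5060, 6530 and 5650 FPKM in WT and 559, 804 and 591 FPKM in HET (-3.15 ± 0.80, limma adjusted p = 0.0231). The HET values were far under every WT value. The call of Rnase1 was lost in 4 of the 6 fits without 1 animal, the adjusted p being 0.0882 without HET replicate 1. Ang, which encodes the ribonuclease angiogenin, was 134, 121 and 170 FPKM in WT and 17.9, 22.5 and 17 FPKM in HET (-2.82 ± 0.36, adjusted p = 0.000279). Its neighbour Rnase4 was 189, 152 and 273 FPKM in WT and 39.2, 46 and 39.6 FPKM in HET and gave -2.23 ± 0.23 (adjusted p = 0.000105). Ang and Rnase4 held their calls without any 1 animal. The pair lie in 1 locus and share upstream exons, so the authors' counting could split their reads. Tmed11, a gene of the early secretory route, was 5.58, 9.09 and 2.84 FPKM in WT and 1.23, 1.12 and 1.02 FPKM in HET (-1.58 ± 0.47, adjusted p = 0.0484), and its adjusted p was 0.196 without WT replicate 2.

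Kallikrein-related peptidase genes were lower as a group, with 7 of 8 tested members lower and a median of -1.70. Of the 14 genes in the list 6 were below the filter on low values. Klk1b11 was 10.8, 14 and 20.6 FPKM in WT and 0.696, 0.738 and 0.324 FPKM in HET (-3.31 ± 0.41, limma adjusted p = 0.000252). Klk1b3 was 7.6, 11.8 and 12.5 FPKM in WT and 1.23, 2.13 and 0.729 FPKM in HET (-2.31 ± 0.41, adjusted p = 0.00253), and Klk1b8 was 2.95, 2.81 and 5.17 and 0.584, 0.212 and 0.326 FPKM (-1.73 ± 0.26, adjusted p = 0.000924). All HET animals were below all WT animals for each of the 8 members. Klk1, tissue kallikrein and by far the most abundant, was 2480, 2740 and 3370 FPKM in WT and 1320, 1360 and 1280 FPKM in HET and did not pass (-1.11 ± 0.62, adjusted p = 0.33). Klk1b24 was also lower, with 1.55, 1.44 and 2.21 FPKM in WT and 0.114, 0.311 and 0 FPKM in HET (-1.26 ± 0.25, adjusted p = 0.00572). In saline the HET means were already lower, Klk1b11 having 26 FPKM in WT and 7.15 FPKM in HET. They were 37.7 and 23.9 FPKM for Klk1b3, 5.98 and 3.02 for Klk1b8, and 11.4 and 4.57 for Klk1b24. At 8 h Klk1b11 had 4.75 and 1.64 FPKM. The genotype difference of these genes at 24 h did not pass the test against saline or 8 h. These genes are near copies of each other, and how reads were divided among them is uncertain.

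Reg and acute phase genes had a median of -0.77, with 1 of 15 tested members higher and none lower. Reg1, a secreted lectin-like protein of acinar cells induced in pancreatitis, was 26100, 22200 and 34100 FPKM in WT and 13600, 12700 and 9850 FPKM in HET, apart but not past the threshold (-1.18 ± 0.56, limma adjusted p = 0.242). Reg3b was 18300, 12700 and 28000 FPKM in WT and 8960, 7250 and 4830 FPKM in HET (-1.46 ± 0.89, adjusted p = 0.378). The member that was higher was Ptx3, the long pentraxin of innate immunity, with 3.12, 0.511 and 2.1 FPKM in WT and 8.33, 7.65 and 8.43 FPKM in HET (1.77 ± 0.32, adjusted p = 0.00278). With the spread of the 6 animals alone 0 members were higher, Ptx3 losing its call, and 2 were lower. These were Reg3d (-2.26, limma adjusted p = 0.0106) and Reg3a (-1.81, adjusted p = 0.0292).

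Protease, lipase, amylase, ribonuclease and Reg genes together made up 42.92%, 43.37% and 49.31% of summed FPKM in WT and 26.75%, 27.99% and 24.12% in HET. The mean was 45.2% ± 3.57 (SD, n = 3) in WT and 26.3% ± 1.98 (SD, n = 3) in HET, a difference of -18.9 percentage points over 43 genes with values in both groups. The exact permutation test, two-sided, gave p = 0.1, the smallest that 3 against 3 animals allow. Summed FPKM was lower in every HET animal than in any WT animal, so a smaller share of these genes need not raise the others. Genes other than enzyme and Reg genes also had a smaller sum in HET. Scaling factors for that sum ran from 0.6271 to 0.6797 in HET, below the WT range of 0.7065 to 0.7514. Rescaling to that sum moved the median difference of all genes up.

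**Figure D3:**
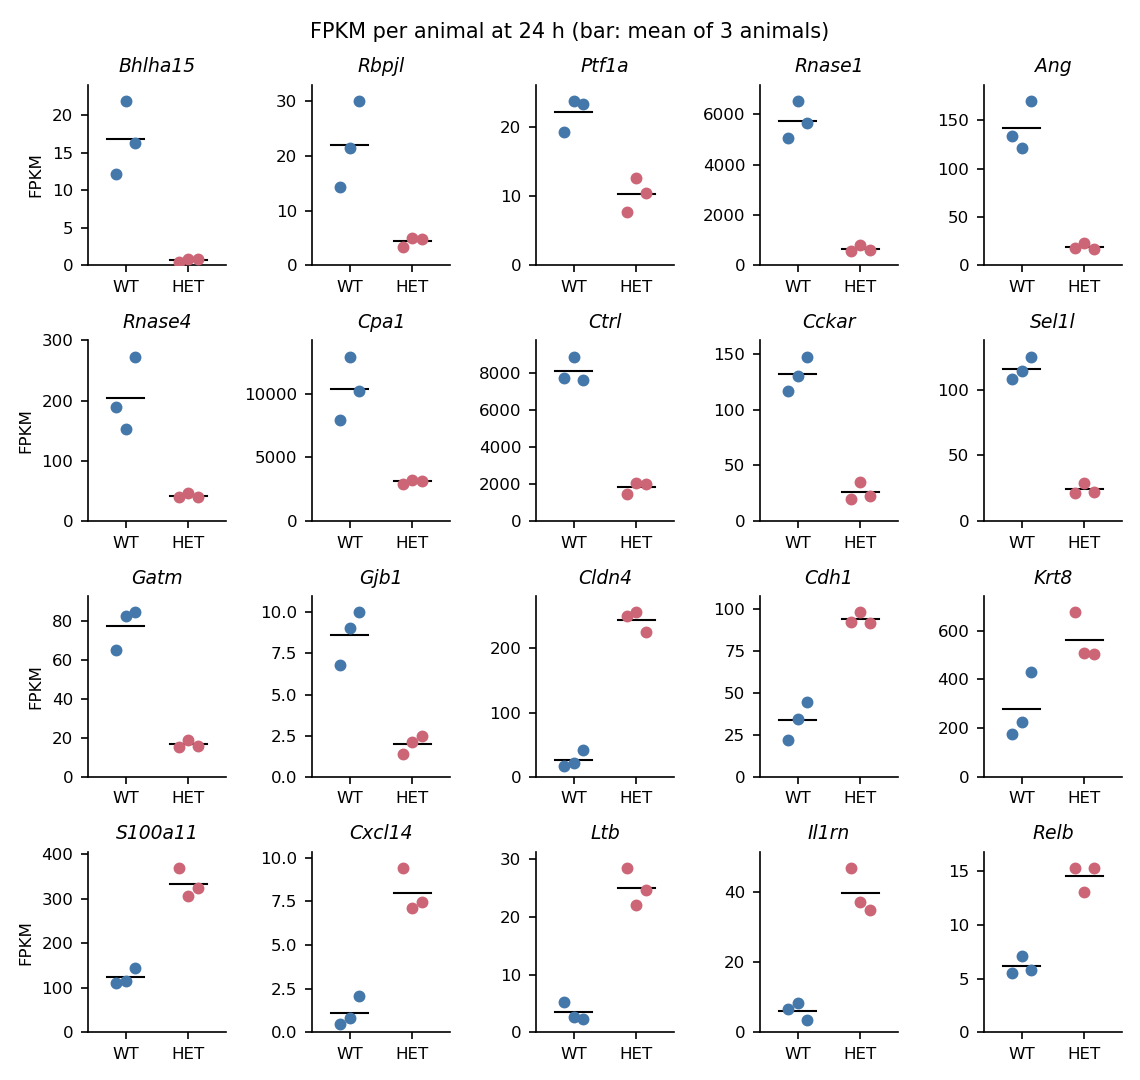
FPKM of 20 genes in the 6 animals at 24 h, each gene on its own linear axis from 0, with 1 point per animal and the mean of each genotype as a bar. HET lies below WT for Bhlha15 to Gjb1 and above it for Cldn4 to Relb in these genes, which were picked with their values known.

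In stimulus-secretion coupling 2 of 17 tested members were lower and 2 were higher, with a median of -0.14. Cckar, the cholecystokinin receptor on which caerulein acts, was 117, 131 and 148 FPKM in WT and 19.4, 34.9 and 22.6 FPKM in HET (-2.36 ± 0.40, limma adjusted p = 0.00179). The lowest WT animal stood far above the highest HET animal. Gjb1, a connexin of the gap junctions that couple acinar cells and whose promoter is shown above, was 6.81, 9.03 and 10 FPKM in WT and 1.4, 2.11 and 2.45 FPKM in HET (-1.69 ± 0.31, adjusted p = 0.00376). Higher in HET were Rcan1, a feedback inhibitor of the calcium-dependent phosphatase calcineurin, with 7.33, 7.7 and 11.4 FPKM in WT and 19.8, 23.6 and 22.9 FPKM in HET (1.26 ± 0.17, adjusted p = 0.000456), and Orai1, the pore of the store-operated calcium channel, with 2.66, 2.9 and 1.52 and 4.53, 4.71 and 5.68 FPKM (0.85 ± 0.18, adjusted p = 0.00825). All 4 calls held without any 1 animal. With the spread of the 6 animals alone 2 members were lower and 1 was higher, the call of Orai1 being lost.

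Outside the lists, P2rx1, an ATP-gated cation channel, was 19.7, 25.7 and 24 FPKM in WT and 4.11, 5.48 and 3.54 FPKM in HET (-2.17 ± 0.38, limma adjusted p = 0.00209). Rap1gap, which switches off the small GTPase Rap1, was 30.1, 28.9 and 40 FPKM in WT and 4.88, 8.17 and 5.05 FPKM in HET (-2.29 ± 0.33, adjusted p = 0.000815). Of 18 genes of granule traffic and exocytosis 2 were lower and the median was -0.02, or 0.11 after the rescaling without enzyme genes. Neither call held after that rescaling or with the spread of the 6 animals alone, each of which gave 0 of 18. The 2 were Rab27a, a GTPase of granule docking, with 3.33, 4.41 and 3.6 FPKM in WT and 2.1, 1.58 and 1.99 FPKM in HET (-0.72 ± 0.15, adjusted p = 0.00818), and the vesicle SNARE gene Vamp2, with 8.01, 5.83 and 7.89 and 3.12, 4.06 and 3.99 FPKM (-0.80 ± 0.19, adjusted p = 0.0188, and 0.0957 without HET replicate 1).

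Genes of folding, glycosylation and degradation in the endoplasmic reticulum were lower in 7 of 36 cases and higher in none, with a median of -0.20. The 7 were mostly of degradation. Sel1l, the adaptor of the ubiquitin ligase that removes misfolded proteins, was 108, 114 and 125 FPKM in WT and 21.6, 29.2 and 22.2 FPKM in HET (-2.21 ± 0.34, limma adjusted p = 0.001). Ero1lb, an oxidase that forms disulfide bonds in secretory cells, was 17.4, 21.2 and 18.6 FPKM in WT and 4.25, 6.14 and 5.77 FPKM in HET (-1.66 ± 0.35, adjusted p = 0.00815). The groups were apart for both, and both calls held without any 1 animal. Edem1, which acts on the glycans of misfolded proteins, was 29.9, 25.2 and 31.1 FPKM in WT and 13.9, 15.6 and 14.2 FPKM in HET (-0.93 ± 0.21, adjusted p = 0.0127, and 0.0568 without HET replicate 1). Edem3 was 5.35, 6.77 and 7.14 and 3.21, 3.57 and 3.45 FPKM (-0.74 ± 0.17, adjusted p = 0.0135, and 0.0622 without HET replicate 1). Edem2, Herpud1 and Derl3 were also lower. The chaperone gene Hspa5, the classical readout of the unfolded protein response, was 194, 229 and 242 FPKM in WT and 290, 211 and 198 FPKM in HET, with overlap (0.06 ± 0.31, adjusted p = 0.956).

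Leaving out 1 animal gave 3 to 7 lower genes in that list, and the rescaling without enzyme genes gave 2. In ER translocation and early transport 1 of 38 was lower, with a median of -0.11, or 0.06 after that rescaling. It was Copz2, a coat protein of Golgi-to-ER vesicles, with 34, 39.6 and 32.3 FPKM in WT and 16.1, 14.4 and 19.3 FPKM in HET (-1.05 ± 0.24, limma adjusted p = 0.0135, and 0.0613 without WT replicate 2).

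Genes of both steps of creatine synthesis were lower. Gatm, whose product makes guanidinoacetate from arginine and glycine, was 64.9, 82.5 and 84.2 FPKM in WT and 15.3, 18.7 and 15.9 FPKM in HET (-2.14 ± 0.29, limma adjusted p = 0.000581). Gamt, whose product methylates it to creatine, was 31.8, 49.3 and 35.9 FPKM in WT and 9.66, 14.7 and 11.5 FPKM in HET (-1.62 ± 0.39, adjusted p = 0.0188, and 0.0875 without HET replicate 1). Both were apart between the genotypes, and they were the 2 lower members among 14 in glycine, creatine and methionine metabolism, with a median of -0.24. Among ATF4 and amino acid stress genes, which had a median of 0.40, 1 of 23 was higher: Eif4ebp1, a repressor of translation initiation, with 27.5, 42.1 and 48 FPKM in WT and 74.9, 64.5 and 57.6 FPKM in HET (0.76 ± 0.21, adjusted p = 0.0359, and 0.17 without WT replicate 1). Its call was lost in 5 of the 6 fits without 1 animal.

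Claudins and other epithelial junction genes were the list with the most higher members, 13 of 24, with 2 lower and a median of 0.63. Claudin 4, encoded by Cldn4, was 17.1, 21.9 and 40.9 FPKM in WT and 251, 256 and 225 FPKM in HET (3.24 ± 0.45, limma adjusted p = 0.000675). Even the highest WT animal, replicate 3, was far under the lowest HET animal. E-cadherin, encoded by Cdh1, was 22, 34.1 and 44.6 FPKM in WT and 91.9, 97.7 and 91.5 FPKM in HET (1.51 ± 0.18, adjusted p = 0.000252). Occludin, from Ocln, was 5.83, 4.8 and 8.71 FPKM in WT and 19.5, 13.8 and 14.5 FPKM in HET (1.20 ± 0.20, adjusted p = 0.00147), and the scaffold gene Tjp3 was 1.58, 2.58 and 3.16 and 5.95, 6.36 and 5.82 FPKM (1.06 ± 0.17, adjusted p = 0.00137).

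Further claudins that were higher were Cldn7 (20, 32.5 and 49.8 FPKM in WT and 102, 97.2 and 90.2 FPKM in HET), Cldn3 (11, 21.1 and 23.6 and 56.4, 36.4 and 36.6 FPKM), Cldn6 (1.14, 4.31 and 3.34 and 8.47, 12.1 and 9.64 FPKM), Cldn12 and Cldn23. F11r, Cgn and Epcam were higher too. Going the other way, claudin 10, from Cldn10, was 17.1, 26.1 and 19.5 FPKM in WT and 2.12, 2.59 and 3.22 FPKM in HET (-2.58 ± 0.39, limma adjusted p = 0.000924), and Cldn8 was 1.93, 3.59 and 2.95 and 0.783, 1.23 and 0.763 FPKM (-0.97 ± 0.20, adjusted p = 0.00778). So the claudin family was split, and both sides were apart between the genotypes. After the rescaling without enzyme genes 13 were again higher and 2 lower, and with scaling by the median of ratios 12 and 2. Leaving out any 1 of the 24 animals gave 8 to 14 higher and 2 lower in the list. A spread estimated from the 6 animals at 24 h alone gave 3 higher and 1 lower.

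Keratin, actin and tubulin genes were higher in 10 of 25 cases and lower in 1, with a median of 0.69. Leaving out 1 animal gave 5 to 13 higher, and the spread of the 6 animals alone gave 4 higher and 0 lower. Krt23, a keratin of stressed epithelium, was 2.07, 4.06 and 3.35 FPKM in WT and 13.1, 10.4 and 9.01 FPKM in HET (1.52 ± 0.24, limma adjusted p = 0.00114). Krt8, a keratin of all simple epithelia, was 174, 226 and 432 FPKM in WT and 676, 508 and 503 FPKM in HET (1.11 ± 0.25, adjusted p = 0.0116, and 0.0706 without HET replicate 1). Krt19, a duct keratin that acinar cells take up after injury, was 68.8, 66.8 and 104 FPKM in WT and 167, 139 and 150 FPKM in HET (0.95 ± 0.22, adjusted p = 0.0154, and 0.0779 without WT replicate 2). WT replicate 3 was the highest WT animal for Krt8 and Krt19 and still lay under every HET animal. Actg1, cytoplasmic actin, was 30.5, 25.8 and 25.8 FPKM in WT and 54.1, 66.9 and 68.2 FPKM in HET (1.17 ± 0.21, adjusted p = 0.00299). Tropomyosin Tpm4 was 38.8, 31.9 and 37.6 and 75.8, 63.4 and 62.4 FPKM (0.88 ± 0.17, adjusted p = 0.00405), and the actin-binding peptide gene Tmsb10 71.4, 40.7 and 54.2 and 137, 110 and 110 FPKM (1.12 ± 0.22, adjusted p = 0.00598). The 1 lower member was Myl9, a smooth muscle myosin light chain (-1.30 ± 0.37, adjusted p = 0.0385, and 0.206 without HET replicate 1).

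Annexins, S100 proteins and galectins were higher in 4 of 23 cases, with a median of 0.37. S100a11, a calcium-binding protein, was 110, 115 and 145 FPKM in WT and 368, 305 and 323 FPKM in HET (1.43 ± 0.16, limma adjusted p = 0.000178). It was already higher in saline-treated HET mice (1.07 ± 0.16, adjusted p = 0.00156). Anxa3 was 16.5, 14.8 and 18.2 FPKM in WT and 45.1, 40.3 and 38.6 FPKM in HET (1.28 ± 0.22, adjusted p = 0.00214). Anxa2 and Anxa7 were higher by 0.77 and 0.47, with an adjusted p of 0.172 without WT replicate 2 and of 0.145 without HET replicate 1. Other duct and progenitor genes had fewer calls, with 1 of 23 higher and a median of -0.11, or 0.01 after the rescaling without enzyme genes. The 1 was Mmp7, a matrix metalloproteinase of injured epithelium, with 7.22, 1.62 and 11 FPKM in WT and 34, 23.2 and 24.8 FPKM in HET (2.13 ± 0.46, adjusted p = 0.0102, and 0.0562 without HET replicate 1). Among the 8 tested duct cell markers 1, Krt19, was higher, and the median was 0.11, with 4 positive and 4 negative differences. Krt7 was 5.22, 2.76 and 4.29 FPKM in WT and 12.7, 8.21 and 10.1 FPKM in HET (1.17 ± 0.35, adjusted p = 0.0535).

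Chemokine ligands and receptors were higher in 8 of 29 cases and lower in none, with a median of 0.41. Cxcl14, an epithelial chemokine whose promoter is shown above, was 0.473, 0.797 and 2.11 FPKM in WT and 9.39, 7.13 and 7.47 FPKM in HET (2.15 ± 0.28, limma adjusted p = 0.000309). Cxcl16, a membrane-bound chemokine, was 10.4, 10.6 and 7.95 FPKM in WT and 35.5, 29.4 and 26.6 FPKM in HET (1.56 ± 0.24, adjusted p = 0.00108). These calls held without any 1 animal. Among the monocyte chemokine genes HET replicate 1 was the highest of all animals. Ccl7 was 36.6, 22.9 and 32.1 FPKM in WT and 110, 71.2 and 69.8 FPKM in HET (1.42 ± 0.30, adjusted p = 0.00837), and without that animal the difference was 1.21, adjusted p = 0.0564. Ccl12 was 5.88, 0.947 and 2.26 and 35.4, 12.8 and 20.4 FPKM (2.65 ± 0.57, adjusted p = 0.0102; without it 2.29, adjusted p = 0.0642), and Ccl2 was 23.6, 19.1 and 25.5 and 91.4, 55.3 and 58.5 FPKM (1.52 ± 0.35, adjusted p = 0.0137; without it 1.3, adjusted p = 0.0845). The calls of Ccl12 and Ccl2 were also lost without WT replicate 2. For all 3 the HET animals lay above the WT animals. Cxcl5 and the receptor genes Ccr1 and Ccr2 made up the rest. Leaving out any 1 of the 24 animals gave 2 to 9 higher members, and the spread of the 6 animals alone gave 5.

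Cytokine and interleukin genes were higher in 7 of 26 cases, with a median of 0.57 and no lower member. Ltb, lymphotoxin beta, was 5.34, 2.66 and 2.38 FPKM in WT and 28.4, 22.1 and 24.6 FPKM in HET (2.60 ± 0.41, limma adjusted p = 0.00122). Il1rn, the natural antagonist of the interleukin 1 receptor, was 6.57, 8.26 and 3.62 FPKM in WT and 46.7, 37.2 and 34.8 FPKM in HET (2.55 ± 0.49, adjusted p = 0.00481). Tnfrsf12a, the receptor of TWEAK, was 9.99, 12.9 and 21.5 FPKM in WT and 44.8, 38.9 and 35.1 FPKM in HET (1.42 ± 0.27, adjusted p = 0.0039). No animal of either genotype crossed into the range of the other for these 3 genes. Il6 was low, with 1.35, 0 and 1.2 FPKM in WT and 3.21, 2.44 and 3.15 FPKM in HET (1.18 ± 0.28, adjusted p = 0.0178, and 0.0987 without WT replicate 2). Il13ra1, a receptor subunit for interleukin 13, was 6.15, 5.97 and 9.82 and 15.7, 12.3 and 11.7 FPKM (0.80 ± 0.18, adjusted p = 0.0108, and 0.0706 without HET replicate 1). Lif and Csf1 were higher too. The list had 3 to 13 higher members when any 1 of the 24 animals was left out. It had 2 with the spread of the 6 animals alone, Ltb and Il1rn.

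Subunits of NF-kB were higher in HET. Rela, the activating subunit of the classical dimer, was 11.6, 17.8 and 17.7 FPKM in WT and 30.5, 29.6 and 27.1 FPKM in HET (0.87 ± 0.14, limma adjusted p = 0.00137). Relb was 5.56, 7.1 and 5.79 FPKM in WT and 15.3, 13.1 and 15.3 FPKM in HET (1.13 ± 0.22, adjusted p = 0.00452), and its partner in the alternative pathway, Nfkb2, was 7.04, 8.36 and 6.54 and 14.2, 14.6 and 15.5 FPKM (0.93 ± 0.20, adjusted p = 0.00946). The 3 calls held without any 1 animal, but with the spread of the 6 animals alone that of Rela was lost. The inhibitor gene Nfkbib was 5.73, 7.37 and 6.75 and 11.2, 10.2 and 9.99 FPKM (0.59 ± 0.16, adjusted p = 0.028, and 0.115 without HET replicate 1). Its call was lost in 5 of the 6 fits without 1 animal. In the whole list 4 of 19 were higher and none was lower, with a median of 0.39. The spread of the 6 animals alone gave 2 higher, Relb and Nfkb2. Tnip3, an inhibitor of NF-kB signalling, was 0.309, 0.13 and 0.252 FPKM in WT and 3.82, 2.3 and 2.8 FPKM in HET (1.68 ± 0.33, adjusted p = 0.00533). AP-1 and immediate early genes had 4 of 22 higher (Maff, Ier3, Fosl2 and Ier5) and a median of 0.09. Maff, a small Maf factor, was 1.38, 1.17 and 1.53 FPKM in WT and 4.14, 3.03 and 2.39 FPKM in HET (0.81 ± 0.19, adjusted p = 0.0145, and 0.094 without HET replicate 1). Ier3 overlapped between the genotypes, with 13.2, 3.66 and 29 and 28.5, 43 and 41.3 FPKM. These 4 lost their calls without WT replicate 2 or HET replicate 1, and none passed with the spread of the 6 animals alone.

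Part of the myeloid genes were higher. Of 20 macrophage and monocyte markers 2 were higher, with a median of 0.50, and of 10 neutrophil markers 2 were higher, with a median of 0.96. The rescaling without enzyme genes gave 0 of the 20, and the spread of the 6 animals alone 0 of the 10. Ccr2, the receptor that brings monocytes into tissue, was 17.4, 10.9 and 11.5 FPKM in WT and 40.5, 36.8 and 36.5 FPKM in HET (1.48 ± 0.42, limma adjusted p = 0.0431), and the endotoxin co-receptor gene Cd14 was 11.4, 6.03 and 8.9 and 29.9, 25.3 and 27.9 FPKM (1.59 ± 0.45, adjusted p = 0.0386). The animals were apart for both, but the calls were lost in 6 and 5 of the 6 fits without 1 animal, the adjusted p of Ccr2 being 0.14 without WT replicate 2 and that of Cd14 0.151 without WT replicate 2. Trem1 was 0.475, 0.0311 and 0.0566 FPKM in WT and 2.09, 0.958 and 0.955 FPKM in HET (0.96 ± 0.20, adjusted p = 0.00717, and 0.053 without HET replicate 1), and Mmp8, neutrophil collagenase, was 0.793, 0.585 and 0.565 and 1.94, 1.39 and 2.06 FPKM (0.76 ± 0.17, adjusted p = 0.0104, and 0.0542 without HET replicate 1). The general macrophage marker Adgre1 was 38.9, 23 and 12.2 FPKM in WT and 26.1, 22.6 and 27.1 FPKM in HET, with overlap (0.17 ± 0.39, adjusted p = 0.869). Neutrophil S100a8 was 72.3, 8.81 and 5.04 and 146, 51.8 and 64.1 FPKM (2.29 ± 1.07, adjusted p = 0.235), WT replicate 1 standing among the HET animals.

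Genes of alternatively activated macrophages were higher in 3 of 16 cases, with a median of 0.31. Il4ra, the receptor of interleukin 4, was 13.6, 8.72 and 9.3 FPKM in WT and 34.2, 33.1 and 34.7 FPKM in HET (1.62 ± 0.33, limma adjusted p = 0.00642), and held without any 1 animal. Chil3, a chitinase-like protein of such macrophages, was 70.2, 5.98 and 33 FPKM in WT and 280, 147 and 139 FPKM in HET (2.81 ± 0.80, adjusted p = 0.0427, and 0.194 without WT replicate 2). Its call was lost in 5 of the 6 fits without 1 animal. Chil1 was 2.49, 0.914 and 0.276 and 5.55, 2.59 and 3.88 FPKM (1.25 ± 0.36, adjusted p = 0.0408, and 0.186 without HET replicate 1). In saline Chil1 was already higher in HET, at 2.72 to 5.46 FPKM against 0 to 1.15 FPKM in WT. Interferon response and MHC class II genes had no call among 28 and 11 tested in limma, with 2 and 0 at an unadjusted p under 0.05 and medians of 0.11 and -0.57. Of 19 complement genes 1 was lower, with a median of -0.47. It was Cfi, the protease that degrades C3b, with 1.43, 1.92 and 1.64 FPKM in WT and 0.532, 0.669 and 0.572 FPKM in HET (-0.74 ± 0.17, adjusted p = 0.0115, and 0.0562 without WT replicate 2). With the spread of the 6 animals alone the complement list had 0 lower and 1 higher member, C5ar1 (1.03, limma adjusted p = 0.047). MHC class II genes summed to 832, 428 and 214 FPKM in WT and 361, 297 and 387 FPKM in HET, and WT replicates 1 and 2 were also the highest for B cell markers.

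Matrix genes had calls in both directions. Of 34 matrix remodelling and matricellular genes 6 were higher and 2 lower (median 0.32), and of 24 collagen and basement membrane genes 1 was higher and 4 were lower (median -0.39). Leaving out any 1 of the 24 animals gave 1 to 8 higher in the first list, and the spread of the 6 animals alone 2 higher and 1 lower. In the second list leaving out 1 animal gave 0 to 1 higher and 0 to 5 lower. The spread of the 6 animals alone gave it 1 higher and 0 lower. Tenascin C, from Tnc, was 0.847, 1.67 and 1.49 FPKM in WT and 4.51, 9.2 and 8.97 FPKM in HET (1.84 ± 0.27, limma adjusted p = 0.000815). Tgfbi, an adhesion protein induced by TGF-beta that is in neither list, was 30.2, 26.4 and 18 FPKM in WT and 86.2, 91.8 and 93.4 FPKM in HET (1.85 ± 0.43, adjusted p = 0.0135). Both were apart between the genotypes and held without any 1 animal. The protease inhibitor gene Serpinb1a was 67.3, 74.4 and 159 FPKM in WT and 209, 198 and 197 FPKM in HET (1.11 ± 0.25, adjusted p = 0.0116, and 0.0658 without WT replicate 2). Mmp7, Mmp8, Timp1 and Has1 were the other higher members of the remodelling list.

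On the lower side, collagen VI chain Col6a1 was 25, 26.6 and 16.4 FPKM in WT and 8.86, 10.8 and 14.5 FPKM in HET (-0.93 ± 0.24, limma adjusted p = 0.0256, and 0.132 without HET replicate 1), and Col6a2 21.5, 25.5 and 14 and 7.49, 9.95 and 12.8 FPKM (-0.93 ± 0.22, adjusted p = 0.0154, and 0.0964 without HET replicate 1). Col14a1 was 8.25, 7.98 and 6.81 and 2.67, 4.3 and 4.41 FPKM (-0.87 ± 0.23, adjusted p = 0.0299, and 0.162 without HET replicate 1), and the fibroblast proteoglycan gene Lum 18.7, 14.2 and 11 and 4.83, 5.95 and 5.57 FPKM (-1.25 ± 0.30, adjusted p = 0.0175, and 0.0766 without HET replicate 1). HET lay below WT in each, with WT replicate 3 the lowest WT animal. Of the 16 fibroblast and stellate cell markers Lum was the 1 that passed, and the median was -0.43. The proteoglycan gene Dcn was 105, 103 and 45 FPKM in WT and 36.6, 29.3 and 42.4 FPKM in HET (-1.12 ± 0.34, adjusted p = 0.0522). Rescaling without enzyme genes left none of the 4 collagen and basement membrane calls on the lower side.

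Of 12 adipocyte markers 2, Lpl and Fabp4, were lower (median -1.45). Lipoprotein lipase, from Lpl, was 27.4, 28.5 and 17.7 FPKM in WT and 9.69, 8.06 and 11.1 FPKM in HET (-1.25 ± 0.19, limma adjusted p = 0.000924). Fabp4, the fatty acid carrier of adipocytes, was 195, 203 and 78.9 FPKM in WT and 31.8, 41.3 and 66.7 FPKM in HET (-1.70 ± 0.42, adjusted p = 0.02, and 0.103 without HET replicate 1). WT replicate 3 was near the HET animals for Fabp4. Among 20 genes of fatty acid and triglyceride synthesis 2 were lower (median -0.23), and 0 after the rescaling without enzyme genes or with the spread of the 6 animals alone. Gpam, the first acyltransferase of triglyceride synthesis, was 5.19, 3.11 and 2.38 and 1.2, 1.21 and 1.51 FPKM (-0.94 ± 0.17, adjusted p = 0.00321), and the desaturase gene Fads2 18, 22.9 and 14.9 and 6.75, 9.86 and 9.63 FPKM (adjusted p = 0.0219, and 0.115 without HET replicate 1). Cholesterol synthesis and uptake went the other way, with 5 of 23 higher, none lower and a median of 0.45, and 0 higher with the spread of the 6 animals alone. Cyp51, lanosterol demethylase, was 7.34, 14.6 and 5.46 FPKM in WT and 18.7, 18.8 and 18.3 FPKM in HET (1.05 ± 0.25, adjusted p = 0.0183, and 0.0723 without WT replicate 3). Msmo1 was 11.2, 16 and 10.8 and 22.9, 28.7 and 25.7 FPKM (0.98 ± 0.25, adjusted p = 0.0246, and 0.0875 without HET replicate 2). Sc5d and Idi1 were higher too, and each of the 5 calls of the list was lost without at least 4 of the 6 animals in turn.

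Glutathione genes were split, with 2 of 23 NRF2 and glutathione genes higher, 4 lower and a median of 0.04, or -0.0014 after scaling by the median of ratios. The transferase gene Gsta3 was 10.2, 15.5 and 18 FPKM in WT and 4.1, 2.17 and 2.28 FPKM in HET (-2.02 ± 0.24, limma adjusted p = 0.000252). Gstm1 was 18.2, 31 and 16.3 FPKM in WT and 7.16, 6.66 and 8.51 FPKM in HET (-1.39 ± 0.27, adjusted p = 0.00493), and Gstt1 was 11.9, 13.9 and 10.9 and 6.71, 6.07 and 4.88 FPKM (-0.95 ± 0.18, adjusted p = 0.00406). Glutathione reductase, from Gsr, was 8.72, 8.2 and 7.11 and 14.4, 14.8 and 16.8 FPKM (0.86 ± 0.17, adjusted p = 0.00566). These 4 genes were apart between the genotypes, and their calls held without any 1 animal. Gstm2 was also lower and Gclc, of glutathione synthesis, higher, with an adjusted p of 0.172 without WT replicate 2 and of 0.203 without HET replicate 1.

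Other genes with large differences included Serpinb9, an inhibitor of granzyme B that has near copies in the mouse genome, with 16.9, 17.9 and 38.2 FPKM in WT and 116, 91.4 and 82.5 FPKM in HET (2.03 ± 0.31, limma adjusted p = 0.001). Wfdc18, a secreted protein with a whey acidic protein domain, was 1.4, 2.76 and 2 FPKM in WT and 9.87, 12.5 and 13.2 FPKM in HET (2.09 ± 0.34, adjusted p = 0.00137). The row of the microRNA gene Mir147 was listed at 0 in all WT animals and at 149, 54.5 and 117 FPKM in HET (adjusted p = 0.0026), and libraries of polyadenylated RNA do not measure the mature microRNA. Gm12222 was also listed at 0 in WT, with 3.41, 2.06 and 2.1 FPKM in HET (adjusted p = 0.00891, and 0.0557 without HET replicate 1), and Gm22953 was 62.8, 111 and 89.5 FPKM in WT and listed at 0 in HET (adjusted p = 0.0237, and 0.081 without WT replicate 2). The call of Gm22953 was lost in 5 of the 6 fits without 1 animal. No fold is given here against a group at 0. Epidermal growth factor, from Egf, was 2.04, 2.9 and 2.37 FPKM in WT and 0.317, 0.565 and 0.637 FPKM in HET (-1.19 ± 0.27, adjusted p = 0.0125, and 0.0651 without HET replicate 1), the 1 lower member of 23 EGF and TGF-beta family genes (median 0.16).

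Housekeeping lists had few calls. Cytosolic ribosomal proteins (39 tested) and respiratory chain subunits (35) had no call in limma, with 0 and 1 at an unadjusted p under 0.05 and medians of -0.09 and -0.14, or 0.08 and 0.03 after the rescaling without enzyme genes. Heat shock proteins (17) and p53 targets (19) had none either, with 2 and 3 at an unadjusted p under 0.05 and medians of 0.22 and 0.23. Hspd1 was 18.5, 22.6 and 18.9 FPKM in WT and 29.2, 27.1 and 26.4 FPKM in HET (0.45 ± 0.14, adjusted p = 0.0554), and the p53 target Bax 20.9, 29.2 and 33 and 49.1, 36.8 and 36.4 FPKM (0.55 ± 0.17, adjusted p = 0.0574). Replication and mitosis had 1 of 38 higher and a median of -0.05, or 0.09 after the rescaling, the call being Cdk6 (0.55 ± 0.16, adjusted p = 0.0452, and 0.177 without WT replicate 1). Proteasome subunits had 1 of 28 higher, Psmd4 (0.59 ± 0.13, adjusted p = 0.0129, and 0.0795 without HET replicate 1), and a median of 0.21. Of 28 lysosome and autophagy genes Ctse was higher (1.48 ± 0.40, adjusted p = 0.0294, and 0.147 without WT replicate 2; median 0.21). Of 20 tRNA synthetases (median 0.14) Wars was lower (-0.93 ± 0.24, adjusted p = 0.0231, and 0.087 without HET replicate 3). Of 13 clock genes (median -0.45) Dbp and Cry2 were lower (-0.98 and -0.46, adjusted p = 0.0164 and 0.0436). The calls of Cdk6 and Cry2 were lost in each of the 6 fits without 1 animal. Those of Ctse and Wars were lost in 5, and those of Psmd4 and Dbp in 3.

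Marker lists with no call in limma were those of B cells (9 tested, 1 at an unadjusted p under 0.05, median -1.25), T and NK cells (7, 1, -0.71), dendritic and mast cells (8, 0, -0.21), endothelium (12, 2, -0.31), islets (14, 1, -0.02, or 0.10 after the rescaling), mesothelium (5, 0, -0.24), nerve (2, 0, 0.32), intestinal epithelium (2, 0, -0.25), red blood cells (3, 1, -0.73) and sex-linked transcripts (5, 0, 0.30). The acinar marker list had 3 of 11 lower, Bhlha15, Rbpjl and Rnase1, and a median of -1.82.

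**Figure D4:**
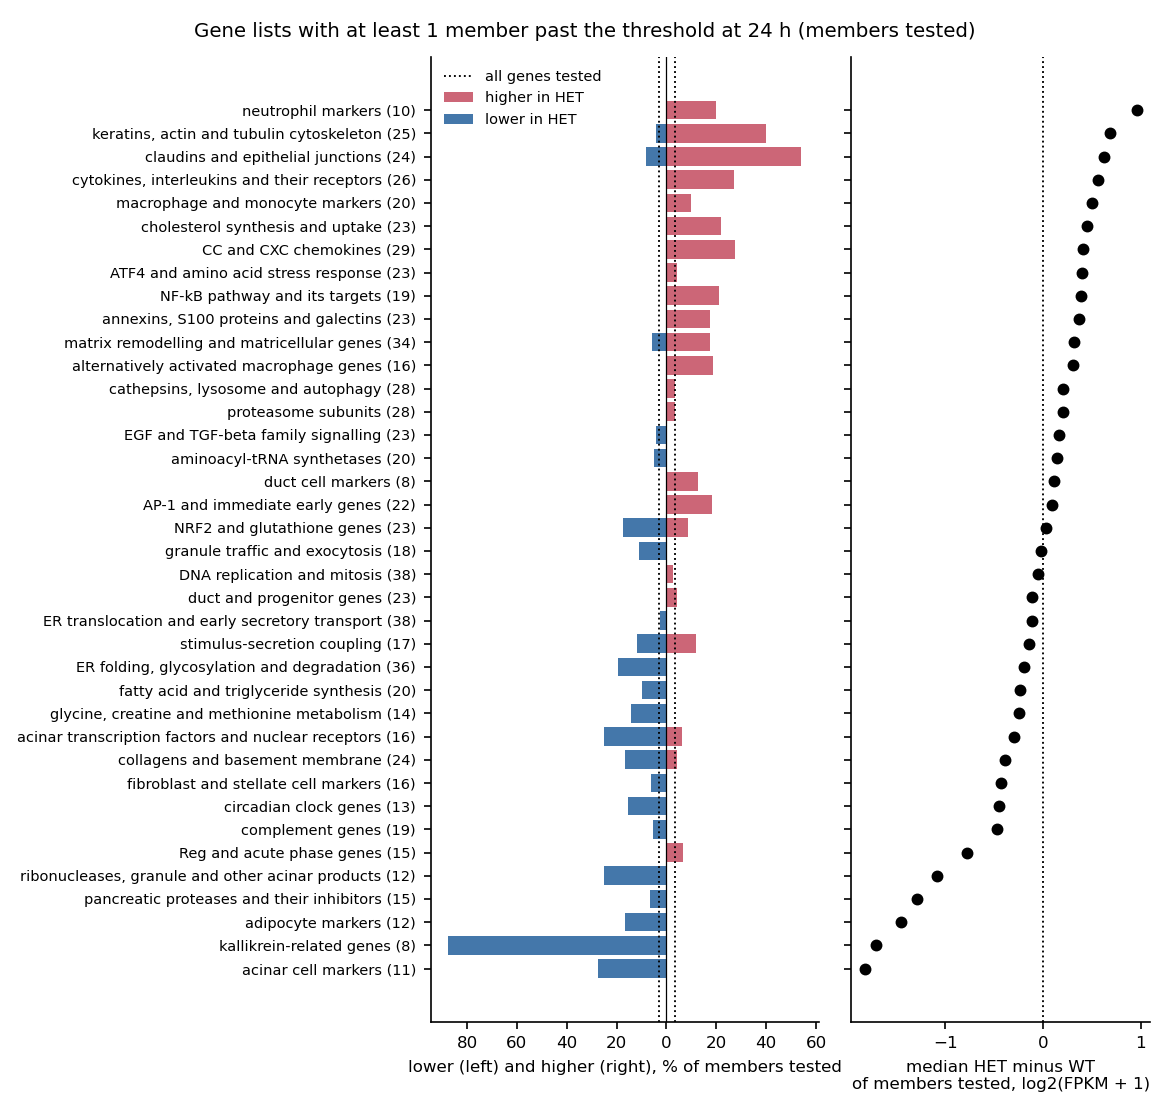
Share of tested members higher or lower in HET (bars, percent) and median difference in log2(FPKM + 1) (points) for each gene list with at least 1 member past the threshold at 24 h, with the shares and median of all tested genes as dotted lines. Claudins, keratins, chemokines and cytokines reach to the higher side and kallikreins to the lower side, while proteases combine a median of -1.28 with 1 of 15 members past the threshold.

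The genotype difference at 24 h was then set against the same difference under the other conditions. Of 12827 genes, 295 (2.3%) had a difference at 24 h that was not that of saline, 137 of them more positive and 158 more negative. Against 8 h the test called 37 of 12831 genes (0.288%), 21 more positive and 16 more negative. Against 48 h it called 2 of 12835 (0.0156%), Gm11826 and AC164557.1. Gm11826 had a difference of 0.54 at 24 h and -1.21 at 48 h. AC164557.1 was listed at 0 in all animals at 24 h, so its call came from a difference of 4.03 at 48 h. None of these conditions share animals, but saline and 24 h libraries were made with the earlier guide (1 saline WT library is named under neither guide) and 8 h and 48 h libraries with the v2 guide, each genotype difference lying within a condition. Levels at 8 h or 48 h therefore differ from those at 24 h in time and in guide, which cannot be told apart.

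With the adipocyte and B cell marker means as covariates no gene differed between 24 h and saline in limma (1500 at an unadjusted p under 0.05) and 10 differed between 24 h and 8 h, while 511 higher and 343 lower genes were called within 24 h. All differences from saline given below thus lose the threshold with these covariates, and those from 8 h do so except for Rnase4, Rcan1 and Lpl. Lpl is itself a marker of the adipocyte list. When 1 animal was left out, 129 to 619 genes differed from saline, 4 to 92 from 8 h and 1 to 19 from 48 h, with 619 and 92 without WT replicate 3 at 24 h and 129 and 4 without WT replicate 1 at 24 h.

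Of the 450 genes higher at 24 h, 211 were also called higher at 48 h, which is 46.9% of the 24 h genes and 28.1% of the 751 genes called at 48 h, where 5.84% of all tested genes were higher and 6.37% lower. Of 385 lower genes with a value at 48 h, 212 were also lower there, 55.1% of the 24 h genes and 26% of 815. In saline 15 of the higher genes (3.33%, and 10.2% of 147) and 24 of the lower genes (6.23%, and 15.6% of 154) had the same call, against 1.15% and 1.2% of all tested genes, and at 8 h 5 (1.11%, and 22.7% of 22) and 2 (0.519%, and 33.3% of 6), against 0.171% and 0.0467%. The sign at 48 h was that at 24 h for 426 of 450 and 354 of 385 genes.

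Bhlha15 shows the course. Saline-treated WT mice had 74.3 ± 2.56 FPKM (mean ± SD, n = 3), and WT mice had 34.3 ± 8.05 FPKM 8 h after caerulein, 16.8 ± 4.87 FPKM at 24 h and 47.5 ± 16 FPKM at 48 h. The corresponding HET groups had 53.8 ± 8.75, 31 ± 0.608, 0.674 ± 0.243 and 4.51 ± 4.21 FPKM. The genotypes did not overlap in saline, where the difference was -0.47 ± 0.46 (limma adjusted p = 0.612), and it was -0.12 ± 0.46 at 8 h (adjusted p = 1). The difference at 24 h was more negative than in saline by -2.91 (adjusted p = 0.025) and than at 8 h by -3.27 (adjusted p = 0.0393). With the marker covariates these values were -2.72 (adjusted p = 0.341) and -3.01 (adjusted p = 0.352).

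Cckar was 209 ± 13.5 FPKM in WT and 226 ± 25.8 FPKM in HET in saline (mean ± SD, n = 3), and 4.39 ± 1.67 and 4.61 ± 1.31 FPKM at 8 h. At 24 h WT was at 132 ± 15.5 FPKM and HET at 25.6 ± 8.18 FPKM, and at 48 h they were at 127 ± 36.1 and 45.8 ± 29.5 FPKM. Both genotypes had very low levels at 8 h, in libraries of the other guide. The difference at 24 h was more negative than in saline by -2.47 (limma adjusted p = 0.0262, and 0.293 with the marker covariates), and against 8 h it did not pass (-2.44, adjusted p = 0.0703).

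The ribonuclease gene Ang had 13.3 ± 3.86 FPKM in WT and 13.1 ± 3.06 FPKM in HET at 8 h (mean ± SD, n = 3), and 142 ± 25.4 and 19.1 ± 2.95 FPKM at 24 h. Gatm was at 12.5 ± 2.08 and 11.8 ± 1.41 FPKM at 8 h, and at 77.2 ± 10.7 and 16.6 ± 1.81 FPKM at 24 h. Ang, Rnase4 and Gatm differed from both saline (-2.74, -1.96 and -1.78) and 8 h (-2.81, -2.16 and -2.07) by limma, with adjusted p of 0.0109, 0.00943 and 0.0286 for saline and 0.0258, 0.00731 and 0.0393 for 8 h. With the marker covariates these were 0.184, 0.0607 and 0.226 for saline and 0.178, 0.0198 and 0.178 for 8 h. Rnase1, with 50300.0 ± 5524 FPKM in saline and 2570.0 ± 751 FPKM at 8 h in WT, did not pass either test (adjusted p = 0.134 and 0.258).

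Of the genes higher in HET at 24 h, Cdh1, Rela and Rcan1 had their highest group means at 8 h in both genotypes, and Cldn4 and Cxcl14 did so in WT alone. Cdh1 was 28.6 ± 2.06 FPKM in WT and 19.1 ± 3.74 FPKM in HET in saline (mean ± SD, n = 3), 331 ± 18.5 and 349 ± 27.4 FPKM at 8 h, 33.6 ± 11.3 and 93.7 ± 3.47 FPKM at 24 h, and 26.3 ± 3.67 and 49.9 ± 5.05 FPKM at 48 h. Cldn4 was 132 ± 22.2 FPKM in WT and 195 ± 31.7 FPKM in HET at 8 h, and 26.6 ± 12.6 and 244 ± 16.6 FPKM at 24 h. Rela was 91.8 ± 6.43 and 85.4 ± 5.42 FPKM at 8 h and 15.7 ± 3.55 and 29.1 ± 1.76 FPKM at 24 h. Rcan1 was 1253 ± 107 FPKM in WT and 907 ± 109.9 FPKM in HET at 8 h, and 8.81 ± 2.25 and 22.1 ± 2.02 FPKM at 24 h. Cxcl14 was 3.84 ± 0.685 FPKM in WT and 3.06 ± 0.887 FPKM in HET in saline, 8.19 ± 1.46 and 9.6 ± 1.05 FPKM at 8 h, 1.13 ± 0.867 and 8 ± 1.22 FPKM at 24 h, and 4.34 ± 1.79 and 12.5 ± 4.36 FPKM at 48 h.

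These genotype differences were more positive at 24 h than in saline for Cdh1 (2.09, limma adjusted p = 0.00195), Cldn4 (3.83, adjusted p = 0.00943), Rcan1 (1.37, adjusted p = 0.00943) and Cxcl14 (2.41, adjusted p = 0.00943). With the marker covariates the adjusted p was 0.0635, 0.203, 0.0607 and 0.296 in this order. Against 8 h Cdh1 (1.43, adjusted p = 0.0258), Rcan1 (1.72, adjusted p = 0.00277), Rela (0.97, adjusted p = 0.0433) and Cxcl14 (1.94, adjusted p = 0.0407) passed, and Cldn4 did not (2.67, adjusted p = 0.0814). With the covariates Rcan1 passed (adjusted p = 0.00257), and Cdh1, Rela and Cxcl14 did not (0.178, 0.122 and 0.399).

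Fabp4 and Scd1 had differences of opposite sign in saline and at 24 h. Fabp4 was 47.5 ± 6.43 FPKM in WT and 142 ± 29.1 FPKM in HET in saline (mean ± SD, n = 3), and 159 ± 69.5 and 46.6 ± 18 FPKM at 24 h. Scd1, stearoyl-CoA desaturase, was 13.1 ± 7.42 FPKM in WT and 133 ± 92.9 FPKM in HET in saline, and 44 ± 27.2 and 10.1 ± 5.24 FPKM at 24 h. The differences between the conditions were -3.24 (limma adjusted p = 0.0102) and -5.08 (adjusted p = 0.0139), and -1.28 and -1.61 with the marker covariates (adjusted p = 0.284 and 0.341), Fabp4 being itself a marker of the adipocyte list. Thrsp, Plin1, Dgat2 and Trf also had large negative values.

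**Figure D5:**
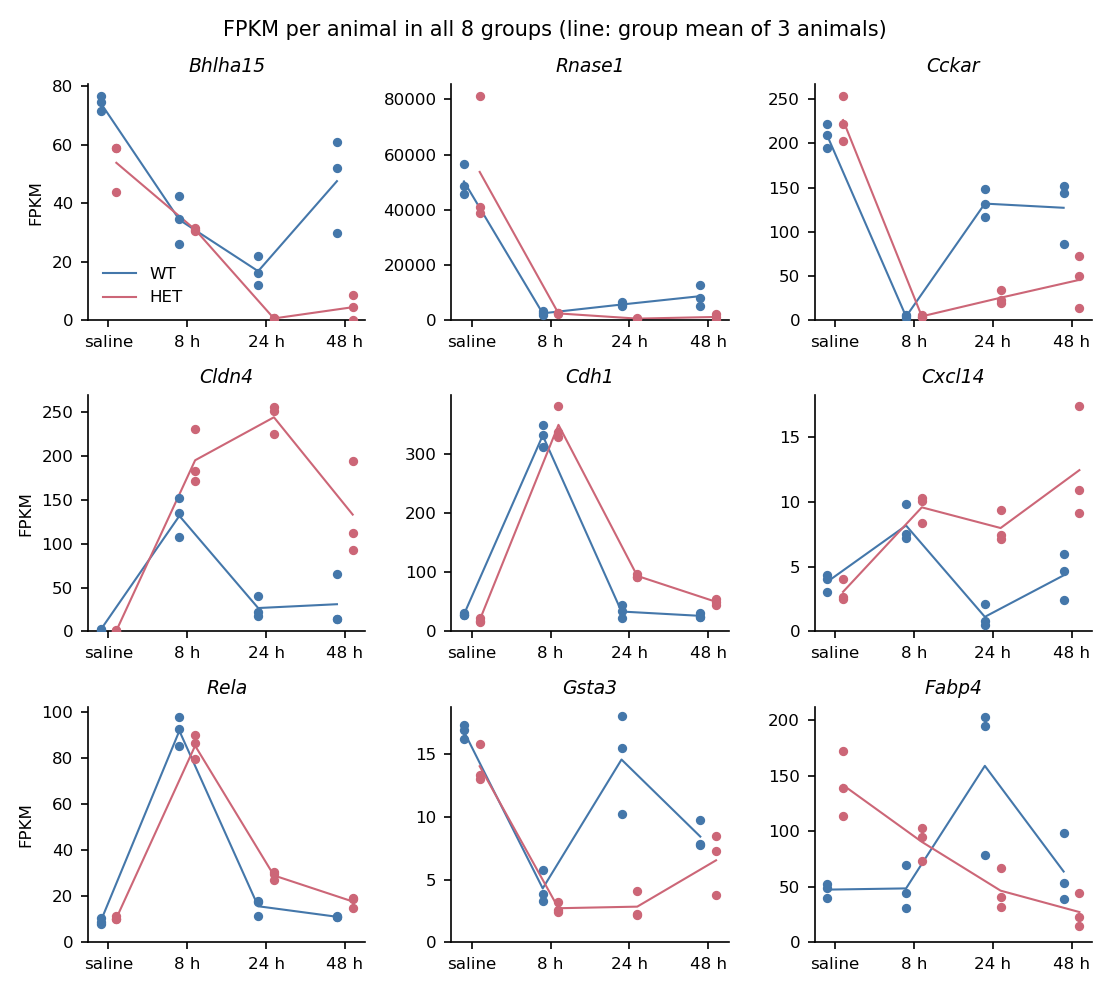
FPKM of 9 genes in all 24 animals by condition and genotype, each gene on its own linear axis from 0, with 1 point per animal and lines through the group means. Bhlha15 and Cckar lie lower in HET than in WT at 24 h and are similar at 8 h, Cdh1 and Rela have their highest means at 8 h and lie higher in HET at 24 h, and Fabp4 changes order between saline and 24 h.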

How the data were processed

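The authors deposited 1 table of FPKM with a line per Ensembl gene and a column per sample, and the submitters' processing notes name Cufflinks 2.0.2 and Cuffnorm, beside Bowtie, CASAVA 1.8 and build mm9. The unit is not in the header and was inferred as FPKM from those tools and the values. How the authors scaled samples, which annotation they used and how strand was handled is not given in the sources used here, and the depth behind FPKM is unknown. RNA integrity numbers were 6.6 to 9.2 and libraries of poly(A) RNA followed, per the labels' protocols, an earlier TruSeq guide (the 24 h and saline samples, 1 WT saline sample being named under neither guide) or a v2 guide (8 h and 48 h). The table held 36806 genes, 12784 of them at 0 everywhere, and 31840 were named from the RefSeq table. Each sample came from a separate animal by the series design. Replicates correlated at r = 0.8841 to 0.9129 within WT and 0.938 to 0.9444 within HET at 24 h.

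A gene listed at 0 in every sample of a group was treated as a missing estimate where every sample of another group had at least 100 FPKM, as were neighbouring genes with the same pattern, and was left out of comparisons that use that group (33 genes at 24 h). Genes that reached 1 FPKM in at least 3 of 24 samples were tested on log2(FPKM + 1) with limma 3.58.1 in R 4.3.3, each group having its own mean (8 groups, 16 degrees of freedom left), with trend and robust moderation, two-sided tests and Benjamini-Hochberg adjustment over all tested genes. Interactions were contrasts of the genotype differences of 2 conditions. The fit was tested on simulated data. Tables were made with numpy 2.4.6 and pandas 2.3.3 in Python 3.11.15, the exact test with scipy 1.17.1 and plots with matplotlib 3.10.9.

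The 39 pathway lists and 16 marker lists, the comparison and the tests were chosen with earlier results of these data known. Named genes were Nr5a2, the 15 largest differences in each direction among called genes (official symbol, separate groups, a mean of 2 FPKM or more in the higher group), up to 4 called members per pathway list with the smallest adjusted p (2 members as values where none passed), 2 members per marker list, and the 6 largest called differences from saline in each direction. Other members printed with values were chosen after their values were seen: Hnf4a, Ptf1a, Gata4, Cpa1, Ctrl, Cel, Cela2a, Klk1, Reg1, Reg3b, Hspa5, Ocln, Cldn3, Cldn6, Cldn7, Cldn8, Krt8, Myl9, Ccl2, Il6, S100a8 and Adgre1. The alternatives were other pseudocounts and filters, the spread of fewer groups, no trend, sample weights, 2 rescalings, zeros kept, leaving out each animal, and, added after the data were seen, marker means or Xist as covariates. Some named genes are not reported here.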

Additional observations from a re-analysis of the deposited data

Results flagged for a closer look

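The genotype difference at 24 h differed from that in saline by limma's interaction test for the named genes given here. Values are the difference at 24 h minus that in saline, on the scale of log2(FPKM + 1). With adipocyte and B cell marker means as covariates none of them passed, the adjusted p being 0.0607 to 0.597. It was more negative for Bhlha15 (-2.91), Ang (-2.74), Cckar (-2.47), Cldn10 (-2.27), Sel1l (-2.02), Rnase4 (-1.96), Rap1gap (-1.85), Gatm (-1.78), Gsta3 (-1.77), Gjb1 (-1.75) and Gstt1 (-1.02). It was more positive for Cldn4 (3.83), Cxcl14 (2.41), Il4i1 (2.18), Tcim (2.16), Camk2d (2.16), Cdh1 (2.09), Krt23 (1.97), Serpinb9 (1.72), Tnc (1.68), Serpinb1a (1.64), Tjp3 (1.42), Rcan1 (1.37), Gsr (1.20) and Psmd4 (0.90). It was also more positive for Mir147 (6.64), which was listed at 0 in WT at 24 h and in both genotypes in saline. The size of that value depends on the pseudocount.

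Further negative values were those of Scd1 (-5.08), Thrsp (-4.97), Gm15796 (-3.88), Trf (-3.82), Plin1 (-3.73), Dgat2 (-3.45), Fabp4 (-3.24), Lum (-1.91), Dcn (-1.91), Col6a1 (-1.45), Lpl (-1.35) and Col6a2 (-1.34). Adipocyte marker sums were 81.4 to 221 FPKM in HET and 177 to 624 FPKM in WT at 24 h. Plin1, Fabp4 and Lpl with the covariates gave -0.77, -1.28 and -0.75. All of them are members of the adipocyte list whose mean is a covariate, so smaller values follow in part from the fit itself. With Xist as covariate the differences from saline of Mir147, Serpinb9, Tnc, Cldn10, Cckar, Rap1gap, Sel1l, Gatm and Gjb1 did not pass. Those of Gstt1, Col6a1, Col6a2, Dcn, Gm15796, Trf and Plin1 did not pass either. The limma adjusted p of these genes was 0.0516 to 0.0879. The cause of the differences from saline was not tested.

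Against 8 h, the difference at 24 h was more negative for Bhlha15 (-3.27), Ang (-2.81), Rnase4 (-2.16), Gatm (-2.07) and Lpl (-1.69). It was more positive for Cxcl14 (1.94), Rcan1 (1.72), Cdh1 (1.43), S100a11 (1.36), Tjp3 (1.24) and Rela (0.97). With the marker covariates Rnase4, Rcan1 and Lpl passed. With Xist as covariate Bhlha15, Gatm, Cxcl14, Tjp3 and Rela did not pass, the limma adjusted p being 0.0511 to 0.0545. These 11 values set libraries of the earlier guide against libraries of the v2 guide, each difference lying within a guide.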

How the results depend on the processing

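For genes higher in HET at 24 h (450), the count was 107 with the spread of the 2 groups alone, 172 with that of the saline and 24 h groups, 711 with sample weights, and 169 to 413 when 1 animal was left out. For genes lower (386) it was 149, 205, 672 and 139 to 386, and 164 after rescaling each sample to the sum of its genes other than enzyme and Reg genes. That rescaling shifted the median of all genes to 0.14 and the split to 358 higher and 164 lower. The count that differed from saline (295) was 100 with the spread of the saline and 24 h groups, 47 after that rescaling, 0 with adipocyte and B cell covariates, 177 with Xist as covariate and 129 to 619 without 1 animal. The count that differed from 8 h (37) was 62 at a pseudocount of 5, 21 without a filter, 342 with sample weights, 10 after that rescaling, 10 with the marker covariates, 23 with Xist and 4 to 92 without 1 animal. The count that differed from 48 h (2) was 18 at a pseudocount of 5, 18 without a filter, 293 with sample weights, 1 after that rescaling, 13 with zeros kept and 1 to 19 without 1 animal. The cause of these shifts was not tested, except that fewer animals or groups leave fewer degrees of freedom. The difference in the share of enzyme and Reg genes was -15.62 points over genes with values in all 8 groups and -20.05 to -16.86 points without 1 animal.

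No named call changed direction under any alternative run. Of the 104 named genes called, 53 kept the call in each fit without 1 animal, and 49 under every setting but the 2-group spread, which kept 57. A fit without 1 animal leaves that group with 2 and assumes that these vary like the other groups. No paired analysis was possible because the labels carry no replicate numbers and nothing in them ties animals of different groups. With 3 animals a group and no counts, the depth behind low values is unknown and small differences cannot be seen.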

Other observations

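Genes outside the lists and the naming rule, picked after their values were seen, also showed large falls. Ces1d, a carboxylesterase of lipid metabolism, was 8.9, 9.79 and 5.08 FPKM in the WT animals and 0.826, 0.889 and 1.41 FPKM in the HET animals at 24 h (-2.10 ± 0.31 on the scale of log2(FPKM + 1), SE, limma adjusted p = 0.000815). Its genotype difference was 0.39 in saline, -0.03 at 8 h and -2.43 at 48 h. Lrg1, a secreted glycoprotein induced in inflammation, was 61.7, 41.2 and 89.3 FPKM in WT and 10.8, 15.4 and 17.5 FPKM in HET (-2.02 ± 0.40, adjusted p = 0.00539), and so was lower in the genotype in which chemokine and cytokine genes were higher. Its difference was 1.26 in saline, 0.46 at 8 h and 0.10 at 48 h. The animals of the genotypes did not overlap at 24 h for either gene.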
